A study of Mus musculus with 3 samples.

Results

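Type 1 conventional dendritic cells (cDC1) of B16F10 tumors were taken from 2 single-cell libraries and were chosen by their own transcripts. A barcode counted as a cDC1 when Xcr1 and Clec9a together gave at least 2 UMIs (unique molecular identifiers, each marking 1 captured RNA molecule), the MHC class II genes H2-Aa, H2-Ab1, H2-Eb1 and Cd74 made up at least 2% of its UMIs, Ccr7 had at most 1 UMI, and C1qa, C1qb and C1qc stayed under 0.1% of UMIs. Barcodes were kept from 1000 UMIs and 400 detected genes upward, provided that mitochondrial genes gave no more than 10% of UMIs. The rule found 68 cDC1 among 8877 kept tumor barcodes, 46 in the control tumor and 22 in the tumor of the Treg-depleted mouse. The series held 14427 kept barcodes in all.

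The control tumor is labelled WT, from the C57BL/6J strain carrying subcutaneous B16F10, a mouse melanoma line. The other tumor is labelled FoxP3 DTR and treg-depleted, on the same strain and with the same tumor; the DTR allele puts the diphtheria toxin receptor in Foxp3-expressing regulatory T cells (Treg), and the series describes 1 depleted mouse. The labels give no time, dose, animal age or number of pooled control animals, and every cell had passed a sort for CD45+ cells that were CD11b+ and/or CD11c+ and lacked CD90, NK1.1, Ly6G, B220 and SigF. A control-blood library is used only in the closing section. Each condition has 1 library, so the allele, the depletion, the animal and the library preparation cannot be told apart. No difference below has a replicate check, and the 95% intervals (exact Poisson for a level, exact conditional binomial for a ratio, Clopper-Pearson for a share) cover counting error only.

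Dendritic cells of this type take up material from dying cells and load it onto MHC class I for CD8 T cells, a process called cross-presentation. Their development depends on the transcription factors Irf8 and Batf3. They carry the chemokine receptor Xcr1, which responds to Xcl1 from NK and T cells, and the lectin-like receptor Clec9a, which binds actin exposed on dead cells. On activation they gain Ccr7 and leave for lymph nodes, so the limit on Ccr7 holds the cells described here to those without that sign of maturation.

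The promoters of the 2 defining genes, and of the 2 leading genes whose promoter held a searched motif, are shown first. Each is the stretch of 250 bases before the RefSeq transcription start on GRCm38.p6, 5′ to 3′ on the gene's strand, with motif matches in capitals.
Xcr1, chr9:123862030-123862279, minus strand: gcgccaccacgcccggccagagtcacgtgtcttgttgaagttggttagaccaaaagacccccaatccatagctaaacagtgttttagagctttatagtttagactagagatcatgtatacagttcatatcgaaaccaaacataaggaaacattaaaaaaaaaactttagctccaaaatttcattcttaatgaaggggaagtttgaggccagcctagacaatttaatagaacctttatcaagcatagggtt
Clec9a, chr6:129408612-129408861, plus strand: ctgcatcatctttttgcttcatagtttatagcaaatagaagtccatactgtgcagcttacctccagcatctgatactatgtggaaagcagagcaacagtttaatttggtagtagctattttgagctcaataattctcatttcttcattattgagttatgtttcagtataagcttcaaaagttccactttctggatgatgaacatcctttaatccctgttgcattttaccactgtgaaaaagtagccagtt
Plet1, chr9:50494275-50494524, plus strand: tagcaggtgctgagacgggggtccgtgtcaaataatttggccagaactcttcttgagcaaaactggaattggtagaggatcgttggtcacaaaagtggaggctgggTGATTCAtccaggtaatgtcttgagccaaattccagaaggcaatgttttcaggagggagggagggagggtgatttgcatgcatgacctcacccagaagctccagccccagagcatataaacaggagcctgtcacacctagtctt
Ppt1, chr4:122835977-122836226, plus strand: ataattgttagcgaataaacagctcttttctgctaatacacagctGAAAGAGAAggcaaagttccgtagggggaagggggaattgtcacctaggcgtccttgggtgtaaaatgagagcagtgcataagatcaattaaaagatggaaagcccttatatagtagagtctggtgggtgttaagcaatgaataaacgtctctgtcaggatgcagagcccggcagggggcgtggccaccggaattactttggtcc
Both strands were searched for TGANTCA (bound by AP-1 and BATF factors), GAAANNGAA (an interferon response element) and GGAANNGAA (an ETS-IRF element); the last 2 differ at their second letter and cannot match the same bases of a strand. Of 25 genes searched (5 markers and 20 leading genes, below), 19 had a window in the table. Plet1 was the 1 gene with a TGANTCA match, 144 to 138 bases before the start, and Ppt1 the 1 gene with a GAAANNGAA match, 205 to 197 bases before it. None of the 19 held GGAANNGAA. Of all 32851 promoter windows of this length, 6.75% held the first motif, 7.13% the second and 6.99% the third.

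The cDC1 were 1.04% of kept barcodes in the control tumor (95% interval 0.759 to 1.38) and 0.496% in the Treg-depleted tumor (0.311 to 0.750). These intervals do not overlap, but they say nothing of the spread between animals, and a share of sorted myeloid cells moves with every other cell type in the sort. The limits on Ccr7 and C1q took far more cells from the control tumor. Without them the shares were 2.79% (124 barcodes) and 0.609% (27 barcodes). In the control tumor, 25 barcodes were left out for Ccr7 alone, 25 for C1q alone and 28 for both; in the Treg-depleted tumor the counts were 3, 2 and 0.

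Cells just outside the rule looked different on each side. The 25 control-tumor barcodes left out for Ccr7 alone held Xcr1 at 169 CPM (counts scaled to a common library total of 1e6 UMIs) and Cst3 at 35446 CPM, against 179 and 35047 in the cDC1. They also held Il12b, the shared subunit of IL-12 and IL-23, at 177 CPM against 5.36, and the chemokine gene Ccl5 at 224 CPM against 19.7. The 25 left out for C1q alone held Cst3 at 10590 CPM and Apoe at 2694 CPM. Barcodes with 1 UMI of Xcr1 or Clec9a numbered 62 and 37; their Cst3 stood at 15348 and 7364 CPM, while cDC1 with exactly 2 UMIs (19 and 9 cells) stood at 26960 and 15540 CPM. These values describe the rule's edge and test nothing.

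Depth differed between the cDC1 and the cells around them. The median cDC1 held 12186.5 UMIs in the control tumor and 13346 in the other, against 6410 and 3810.5 in the other kept barcodes, and a deeper cell reaches 2 UMIs of Xcr1 and Clec9a more readily. Summed over cells, the cDC1 profiles rest on 559451 and 311263 UMIs. No cDC1 barcode was shared between libraries, while 36 kept barcodes were shared by the 2 tumors, where 26.7 would be shared by random draws from the kit's barcode list. A nearest-neighbour doublet score marked 3 of the 46 and 1 of the 22.

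The label was checked against the markers that the rule did not use. Irf8, the lineage's main transcription factor, stood at 1341 CPM (1246 to 1440) in control cDC1 and 1504 CPM (1370 to 1646) in Treg-depleted cDC1, against 435 and 340 CPM in the other kept cells. It had a UMI in 43 of 46 and in 21 of 22 cells. Naaa, a lysosomal amidase gene, stood at 1148 and 941 CPM against 310 and 340. Batf3 was low throughout, 51.8 CPM (34.7 to 74.4) and 90.0 CPM (59.8 to 130), against 24.0 and 32.6. All 3 were above the surrounding cells in both tumors, so the summed profiles carry the markers of the label. Batf3 did not set the cDC1 apart from Ccr7-positive dendritic cells (defined below), which held it at 43.4 and 87.1 CPM. In the Treg-depleted tumor Irf8 was 1.44-fold higher in cDC1 than in Ccr7-positive cells, which held 1042 CPM. Naaa there was 1.64-fold higher than in Cd209a-positive dendritic cells (also defined below), which held 572 CPM. In the remaining comparisons with these classes Irf8 and Naaa were at least 2.5-fold higher in cDC1.

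Genes that mark other cells were lower than in the surrounding cells for most lists, but not absent. The 8 monocyte markers were the highest: they summed to 3364 CPM in control cDC1, in 46 of 46 cells, against 14509 CPM in the other cells, and to 1940 CPM in Treg-depleted cDC1, in 21 of 22 cells, against 7821 CPM. Lyz2, which many myeloid cells express, and Plac8 gave most of it, at 2031 and 1013 CPM in the control cDC1. The 8 macrophage markers summed to 381 CPM in control cDC1 against 10539 CPM in the other cells, and to 170 against 2039 CPM in the Treg-depleted tumor; the limit on C1q fixes part of this. The 6 markers of type 2 conventional dendritic cells summed to 141 CPM against 477 in the control tumor and to 196 against 995 CPM in the other. Of these, Cd209a had 2 UMIs and 1 UMI, while Mgl2 had 40 and 26 and stood at 71.5 CPM against 82.0 in the control tumor. The 6 mature dendritic cell markers summed to 170 and 643 CPM, mostly Ccl17, and the 7 neutrophil markers to 21.4 and 112 CPM. Melanoma and fibroblast markers were at 0 in both, and T cell, B cell, NK cell and mast cell markers at 0 in the Treg-depleted cDC1 and up to 12.5 CPM in the control cDC1. The 6 plasmacytoid dendritic cell markers summed to 197 CPM in the control cDC1, nearly all from 2 cells.

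Those 2 cells belong to a small set that met the rule but went against its label. Cst3, which encodes the protease inhibitor cystatin C, ranged in control cDC1 from 0.0537% to 6.11% of a cell's UMIs, with a median of 3.26%. In the Treg-depleted tumor it ranged from 0.0492% to 5.42%, with a median of 3.05%. In each tumor 4 cells stood below 0.5%, and in the Treg-depleted tumor none lay between 0.292% and 1.89%. In the control tumor the nearest values on either side were 0.458% and 0.592%. This threshold was set after the values were seen.

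All 8 low-Cst3 cells met the rule through Clec9a alone, 7 of them with exactly 2 UMIs, and none had a UMI of Wdfy4. In the control tumor, 2 carried the plasmacytoid genes Siglech (9 and 7 UMIs), Ly6d (47 and 7) and Ccr9 (9 and 3), although the sort had gated out B220+ cells. The third held 28 UMIs of Clec4e and the fourth 14 of Thbs1. In the Treg-depleted tumor the 4 held 9, 82, 85 and 107 UMIs of Ccl6, with Mmp12, Lpl, Inhba or Ccl24 beside it. They are 4 of 46 and 4 of 22 cells, so results that rest on them are given without them too.

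**Figure D1:**
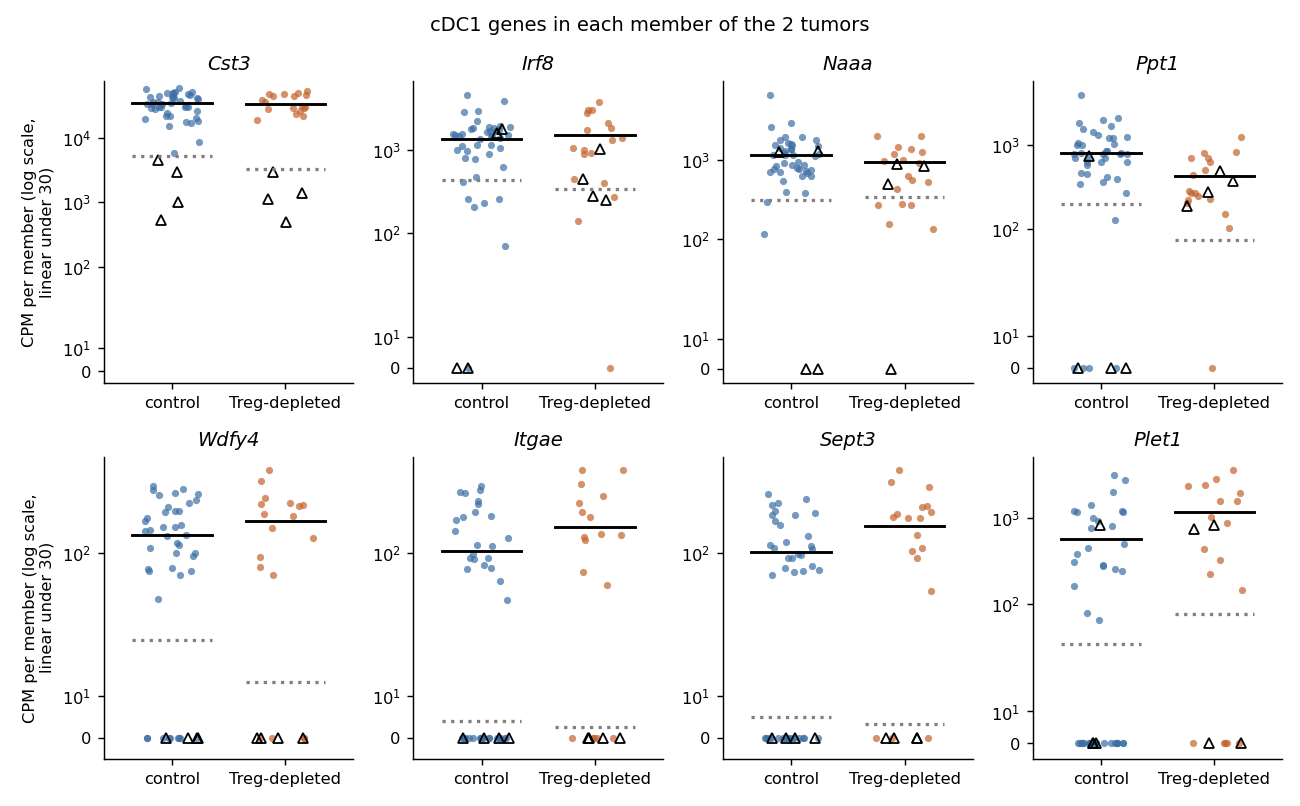
Each point is 1 cDC1, placed by its CPM of the gene named above the panel (log scale, linear under 30 CPM), with the control tumor at left and the Treg-depleted tumor at right. Black lines are the summed level over all cDC1, dotted grey lines that of the other kept cells, and open triangles the 4 cells per tumor with Cst3 under 0.5% of UMIs, which hold no Wdfy4, Itgae or Sept3.

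Against the other kept barcodes of its own library, the cDC1 profile was led by Itgae, Sept3 and Plet1. Genes were ranked here by the smaller ratio of the 2 tumors. Within 1 tumor the order could differ: in the Treg-depleted tumor Plet1 was 15.7-fold higher, below Ckb at 22.5-fold. A gene was compared where its mean CPM over both groups was at least 50, with the genes of the rule left out. Among 2459 genes in the control tumor, 165 (6.71%) were at least 2-fold higher in cDC1 and 342 (13.9%) at least 2-fold lower. Among 2393 in the Treg-depleted tumor, the counts were 305 (12.7%) and 429 (17.9%). The higher sets shared 108 genes, 65.5% of the control set and 35.4% of the other, and the lower sets 254 genes, 74.3% and 59.2%. Across 2169 genes measured in both, the 2 sets of ratios had a Spearman correlation of 0.83, which is a description over genes.

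Itgae, the integrin chain CD103 that pairs with Itgb7 to bind E-cadherin, led the ranking (chr11:73090583-73147446 on GRCm38). It stood at 105 CPM against 4.17 in control cells, 25.3-fold, and at 170 CPM against 2.57 in the Treg-depleted tumor, 66.3-fold. It was detected in 23 of 46 and 13 of 22 cDC1, so about as many cells lacked a UMI as had one. The septin gene Sept3 (chr15:82274893-82294574) stood at 104 against 4.98 CPM and at 173 against 3.25 CPM. Plet1, which encodes a GPI-anchored surface protein, stood at 579 against 33.7 CPM and at 1189 against 75.7 CPM.

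Cst3 was by far the most abundant of the leading genes (chr2:148871722-148875692). Its 35047 CPM in control cDC1 was 6.54-fold the level of the other cells, and its 34701 CPM in Treg-depleted cDC1 10.5-fold. Every cDC1 held at least 1 UMI of it. In the low-count barcodes (10 to 100 UMIs), taken here as the free RNA of the library, it stood at 7074 and 4600 CPM.

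Wdfy4, a gene needed for cross-presentation by cDC1, stood at 145 CPM against 23.4 and at 193 CPM against 13.3 (chr14:32959547-33185508). Ppt1, a lysosomal thioesterase gene, stood at 810 against 197 and at 431 against 75.4. Hhex, a homeobox factor gene, was 7.14-fold and 9.72-fold higher. Cd24a, a surface glycoprotein gene used to sort these cells, was 9.37-fold and 4.43-fold higher. Ckb, the brain-type creatine kinase gene, was 5.21-fold higher in the control and 22.5-fold higher in the Treg-depleted tumor. The leading genes also included Sept6, Ncoa7, Ppm1m, Top2a, Txndc15, Gcnt2, Dctpp1, Prkar2a, 2810417H13Rik and Cks1b, each at least 4.19-fold higher in the control tumor.

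Of 22 listed cDC1 programme genes, 13 were measured in the control comparison and 11 of them were at least 2-fold higher, with a median log2 ratio of 2.63 where the median of all genes was 0.04. In the Treg-depleted tumor it was 8 of 12, with a median of 2.33 against 0.03. None was 2-fold lower. Over all genes 6.71% and 12.7% were 2-fold higher. A listed gene scarce in the other cells passed the level filter only through the cDC1. These counts and medians are therefore partly set by the filter. Some of the listed genes were below the level filter but far lower still around these cells: the sorting nexin gene Snx22 stood at 28.6 CPM against 0.603 and at 35.3 against 0.314, and Gcsam at 80.4 against 1.68 and at 41.8 against 0.576. Flt3, the receptor for the growth factor that sustains dendritic cells, stood at 129 against 11.5 CPM and at 90.0 against 4.24. Btla, an inhibitory receptor gene, stood at 96.5 against 5.04 CPM and at 45.0 against 1.94. Tlr3, the endosomal receptor for double-stranded RNA, was at 19.7 and 22.5 CPM, with a UMI in 8 and 5 cells. These genes were listed because the type is known for them.

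Among the genes lowest in cDC1 against the cells around them were 4 chemokine genes. Ccl5 stood at 19.7 CPM against 717 in the control tumor and at 12.9 against 363 in the other, below the 987 and 559 CPM of the low-count barcodes. Ccl8 stood at 14.3 against 665 CPM and at 67.5 against 1633, and Ccl12 at 10.7 against 428 and 25.7 against 428. Apoe, Chil3, Cyp4f18, Ms4a6b and Cxcl1 completed the 8 lowest. Of the listed chemokine genes, 14 of 17 were 2-fold lower in the control tumor and 16 of 19 in the other, with none 2-fold higher; the medians were -2.99 and -2.66. Cxcl9, which draws CXCR3+ T cells, was one of the exceptions, at 250 CPM against 472 and at 225 against 182. Chemokine genes scarce in cDC1 passed the level filter only through the other cells, so the counts above are partly set by it. Over all genes 13.9% and 17.9% were 2-fold lower.

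**Figure D2:**
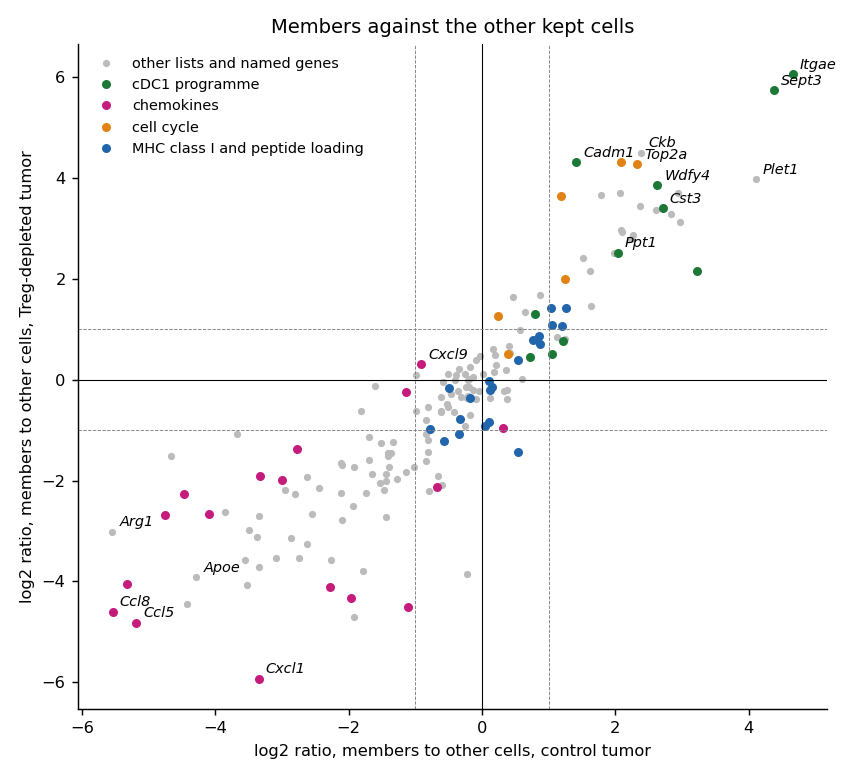
Each of 182 listed or named genes with a mean of at least 50 CPM in both tumors is placed by its log2 ratio of cDC1 to the other kept cells, control tumor on the horizontal and Treg-depleted tumor on the vertical axis; dashed lines mark 2-fold. Itgae and Sept3 lie at the upper right, chemokine genes such as Ccl8 and Ccl5 at the lower left, and cell cycle genes higher on the vertical than on the horizontal axis.

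Antigen-presentation genes did not move as 1 block. Of the MHC class I and peptide-loading genes, 4 of 20 were 2-fold higher in control cDC1 and none lower, with a median of 0.14. In the Treg-depleted tumor 4 were higher and 3 lower, with a median of -0.16. Over all genes 6.71% were higher and 13.9% lower in the control tumor, and 12.7% and 17.9% in the Treg-depleted tumor. The immunoproteasome genes Psmb8 and Psmb9 stood at 2245 and 845 CPM in control cDC1 against 1101 and 352, and at 2136 and 954 CPM in Treg-depleted cDC1 against 794 and 355. Tap2, a subunit of the peptide transporter, stood at 316 against 138 CPM and at 270 against 129. B2m and H2-K1, which encode the class I light and heavy chains, went the other way: B2m stood at 4781 against 8243 CPM and at 5083 against 10029, and H2-K1 at 1142 against 1702 and 916 against 2114. Among class II accessory genes, the H2-O chains H2-Oa and H2-Ob stood at 122 and 132 CPM in control cDC1 against 28.7 and 15.3. The proteases Ctss and Lgmn were lower, at 1266 against 4079 CPM and at 132 against 1483 CPM in the control tumor.

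Against Cd209a-positive dendritic cells, a closer relative, the differences were fewer. These were kept barcodes with at least 2 UMIs of Cd209a, no Xcr1 or Clec9a, and the same limits on class II, Ccr7 and C1q; there were 85 and 47. In the control tumor 155 of 2435 genes (6.37%) were at least 2-fold higher in cDC1 and 280 (11.5%) lower, and in the Treg-depleted tumor 152 of 2296 (6.62%) and 191 (8.32%). All 13 measured cDC1 programme genes were 2-fold higher in the control tumor and 10 of 13 in the other. The level filter admitted some of them through the cDC1 alone, which fixes part of these counts. Cst3 stood at 5185 and 9863 CPM in these cells, and Ppt1 at 69.3 and 52.8. Plet1 separated the types well in the control tumor, at 579 against 27.0 CPM, and less in the Treg-depleted tumor, at 1189 against 568. Clec10a, a lectin gene of type 2 cells, stood at 482 and 739 CPM against 35.7 and 45.0 in cDC1.

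Ccr7-positive dendritic cells (209 and 32 barcodes) had at least 2 UMIs of Ccr7, at least 2 of Fscn1 and Ccl22 together, and the same limit on class II. No limit on C1q was set for them. The control ones held C1qb at 2248 CPM and Apoe at 3209 CPM, against 2482 and 3840 in the other kept cells. The Treg-depleted ones held 227 and 90.2 CPM, against 464 and 145. The control class was thus not free of macrophage transcripts. Ccr7-positive cells held more of several activation genes than cDC1. Il12b stood at 179 CPM in the control ones against 5.36 in cDC1 (3 of 46 cells), and had no UMI in the 22 Treg-depleted cDC1, where the limit of 3 counts set for a count of 0 is 9.64 CPM. Ccl5 stood at 2322 and 2584 CPM against 19.7 and 12.9. Of the co-signalling genes, Cd86 stood at 295 and 235 CPM in cDC1, with a UMI in 40 and 16 cells, and Cd40 at 46.5 and 45.0. Il12a, Cd70, Tnfsf4 and Ido1 had no UMI in either set of cDC1.

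**Figure D3:**
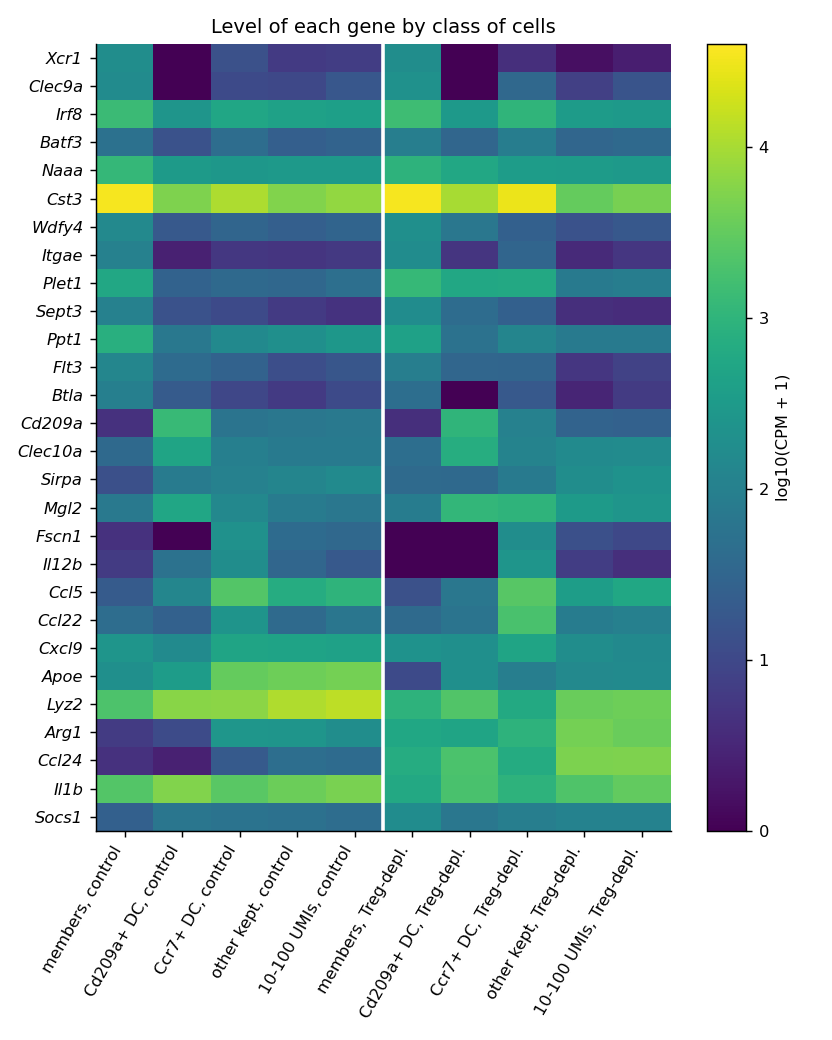
Colour gives the level of each gene as log10(CPM + 1) in 5 classes per tumor: cDC1 (members), Cd209a-positive and Ccr7-positive dendritic cells, the other kept barcodes, and barcodes of 10 to 100 UMIs. Xcr1 to Btla are brightest in the cDC1 columns apart from Cst3 and Batf3. Cst3 is also bright in Ccr7-positive cells of the Treg-depleted tumor. Batf3 is about as bright in Ccr7-positive cells of both tumors, at 43.4 and 87.1 CPM against 51.8 and 90.0 in cDC1. Xcr1, Clec9a, Cd209a, Fscn1 and Ccl22 helped to define the classes, and the Ccr7-positive class had no limit on C1q.

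Within the cDC1, Itgae and Plet1 were found together. In the control tumor 23 cells had Itgae, 24 had Plet1 and 18 had both; in the Treg-depleted tumor the counts were 13, 15 and 11 of 22. Summed over cells with an Itgae UMI, Plet1 stood at 841 CPM (control) and 1405 CPM (Treg-depleted). Over cells without one it stood at 184 and 563 CPM. Across cells the 2 genes had a Spearman correlation of 0.47 in each tumor, over 46 and 22 cells that share a library. Depth moved with it: the median was 13852 UMIs in control cells with Itgae and 9591 in those without, and 17977 against 7456 in the Treg-depleted tumor. Its part in the result was not tested.

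Cells with both defining genes, Xcr1 and Clec9a, were 24 of 46 and 12 of 22. They held Cst3 at 39432 and 40486 CPM, while cells with Clec9a alone (14 and 6) held it at 29568 and 17393 CPM. Wdfy4 stood at 169 and 220 CPM in cells with both and at 54.0 and 36.6 in cells with Clec9a alone. The low-Cst3 cells are all in the latter subset.

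A share of the cDC1 carried cell cycle transcripts. Cells were thinned to 1000 UMIs to bring them to 1 depth, and a cell was scored when at least 5 UMIs fell on 25 listed cell cycle genes. This held for 6 of 46 control cDC1 (13.04%, 4.94 to 26.3) and 7 of 22 Treg-depleted cDC1 (31.8%, 13.9 to 54.9), and those 2 intervals overlap. Among the other kept cells it held for 1.55% and 1.07%, and among Cd209a-positive dendritic cells for 0 of 85 (exact interval up to 4.25%) and 2 of 47. Without thinning, 65.2% and 63.6% of cDC1 had 5 such UMIs. The scored cells were deeper by their medians, at of 19122.5 UMIs against 11127.5 in the control tumor and 24177 against 11003 in the other, although 1 scored Treg-depleted cell held 2326 UMIs and 1 scored control cell 8502.

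The cycling genes followed. Top2a, which untangles chromosomes, stood at 96.5 CPM in control cDC1 against 19.3 in the other cells, and at 190 CPM against 9.85 in the Treg-depleted tumor. It was detected in 7 cells of each tumor, and 1 control cell held 55.6% of its UMIs. The survivin gene Birc5 stood at 73.3 against 21.4 CPM and at 180 against 5.61, and Stmn1, a microtubule regulator, at 277 against 122 and at 524 against 42.1. Of the listed genes measured, 4 of 6 were 2-fold higher in control cDC1 than in the other cells and 8 of 9 in Treg-depleted cDC1, with median log2 ratios of 1.21 and 4.27. Over all genes 6.71% and 12.7% were 2-fold higher. A listed gene scarce in the other cells passed the level filter only where the cDC1 were high. These counts and medians are thus partly set by the filter and are no independent evidence of cycling.

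**Figure D4:**
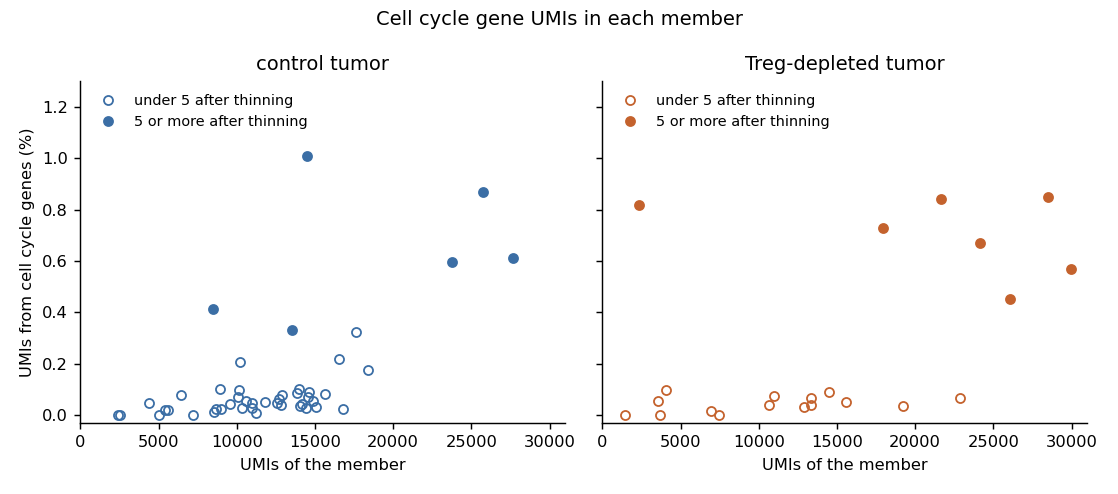
Each point is 1 cDC1, placed by its UMI total and the percent of its UMIs from the 25 cell cycle genes; filled points had at least 5 such UMIs after thinning to 1000. Scored cells (6 of 46 and 7 of 22) have the higher percentages; in the control tumor the lowest of them, at 0.332%, lies beside an unscored cell at 0.323%, while in the Treg-depleted tumor they start at 0.453% and unscored cells end at 0.0985%.

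Set directly against each other, the cDC1 of the 2 tumors were less than 2-fold apart for most genes. Of 2336 genes with a mean CPM of at least 50, 96 (4.11%) were at least 2-fold higher in the Treg-depleted cDC1 and 53 (2.27%) at least 2-fold lower, and the median log2 ratio was -0.04. For 580 genes the counting interval left out a ratio of 1. Genes of the type that the rule did not use were less than 2-fold apart in these examples: Cst3 had a log2 ratio of -0.01 (-0.05 to 0.02), Irf8 0.17 (-0.0042 to 0.33) and Wdfy4 0.41 (-0.09 to 0.91). Of 14 measured cDC1 programme genes none was 2-fold higher and 1, Btla, was 2-fold lower, at -1.10 (-2.06 to -0.23). The list's median was -0.10. Ppt1 came close to 2-fold lower, at -0.91 (-1.20 to -0.63), and Plet1 was 2-fold higher, at 1.04 (0.82 to 1.26).

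Socs1, which encodes a feedback inhibitor of interferon and cytokine signalling, was among the most clearly higher in the Treg-depleted tumor (chr16:10782240-10785536). It was detected in 9 of 46 control cDC1, at 25.02 CPM summed, and in 14 of 22 Treg-depleted cDC1, at 173 CPM. The per-cell median was 0 in the first and 104 CPM in the second, with highest values of 256 and 1677 CPM, so the ranges overlap. The log2 ratio was 2.79 (1.93 to 3.76), 2.57 without the cell holding most of its UMIs and 2.73 without the low-Cst3 cells. The other kept cells also held more, 109 against 51.4 CPM, and the low-count barcodes 108 against 42.3. Other interferon gamma response genes did not follow to that size. Of 11 measured, 1 was 2-fold higher, Socs1 itself, beside 4.11% of all genes, and the list's median was 0.15. Irgm1, an immunity-related GTPase gene, came next at 0.98 (0.46 to 1.51), and 0.38 without the cell with the most UMIs.

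The largest ratios belonged to genes that were abundant throughout the Treg-depleted tumor. Ccl24, an eosinophil-attracting chemokine gene, had 2 UMIs in control cDC1 and 223 in Treg-depleted cDC1 (3.57 and 716 CPM), a log2 ratio of 7.65 (5.78 to 10.7). Of those 223, 63.7% were in 1 cell, which is a low-Cst3 cell. Without low-Cst3 cells the Treg-depleted level was 268 CPM and the ratio 7.18; without the top cell the ratio was 6.24, and with at least 3 UMIs of Xcr1 and Clec9a 3.78. The low-count barcodes held it at 39.4 CPM (control) and 5042 CPM (Treg-depleted). Arg1, the arginase gene, had 3 UMIs against 169 (5.36 and 543 CPM), with 182 and 3579 CPM in the low-count barcodes. Its log2 ratio was 6.66 (5.09 to 8.95), and 5.11 after subtracting a profile of free RNA set at 10% of each cell's UMIs. The level around these cells moved with both genes, and its part in the result was not tested.

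For the monocyte-attracting chemokine genes Ccl7 and Ccl2, 1 Treg-depleted cell held most of the UMIs of each gene. A UMI of them was found in 21 and 17 of 22 cells. Ccl7 stood at 73.3 CPM in control and 652 CPM in Treg-depleted cDC1, where 1 cell held 78.3% of its UMIs; the log2 ratio of 3.15 was 1.01 without the top cell. Ccl2 stood at 92.9 and 492 CPM, and its ratio of 2.40 became 0.67. The low-count barcodes held Ccl7 at 2669 CPM (control) and 6186 CPM (Treg-depleted), and Ccl2 at 1961 and 3998 CPM. Ccl6 stood at 191 and 1076 CPM, but without the low-Cst3 cells its ratio went from 2.49 to -0.03. Ccl17, a ligand of CCR4, stood at 98.3 and 578 CPM in 8 and 11 cells, with a ratio of 2.56, and 1.74 without the top cell. Of 13 measured chemokine genes 7 were 2-fold higher (Ccl9 and Pf4 with those named) and 2 lower (Ccl3 and Cxcl2). The list's median of 1.14 ranged from 0.05 to 2.22 over the alternatives. Among the 7, Ccl6 was within 2-fold without the low-Cst3 cells and Ccl2 without its top cell. Ccl24, at 3.57 CPM in control cDC1, passed the level filter only through the Treg-depleted cDC1. Ccl3, at 32.1 CPM in Treg-depleted cDC1, passed only through the control cDC1. These counts and the median are thus partly set by the filter. Over all genes 4.11% were 2-fold higher and 2.27% lower.

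Other genes higher in the Treg-depleted cDC1 were AA467197 at 800 against 104 CPM (422 against 107 without the low-Cst3 cells), the heme oxygenase gene Hmox1 at 241 against 53.6, Sdc4 at 112 against 25.02 and the lipid droplet gene Hilpda at 196 against 60.8. Each was also higher in the low-count barcodes of that tumor, AA467197 at 3439 against 324 CPM and Hmox1 at 2122 against 1116. Lpl, the lipoprotein lipase gene, had a ratio of 2.04 that became -0.86 without the low-Cst3 cells. Chil3, a chitinase-like gene, was at 106 against 14.3 CPM with 72.7% of its UMIs in 1 cell; the ratio of 2.89 was 1.14 without that cell and 0.77 with both Xcr1 and Clec9a required. The long noncoding RNA AY036118 stood at 652 against 186 CPM, and shifted as much in the other kept cells, 537 against 160.

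Cell cycle genes were the other group that stood higher. Of 11 measured, 5 (Birc5, Tyms, Rrm2, Ube2c and 2810417H13Rik) were at least 2-fold higher in Treg-depleted cDC1 and none lower, with a median of 0.97. Over all genes 4.11% were 2-fold higher and 2.27% lower. Tyms, a thymidylate synthase gene, stood at 112 against 39.3 CPM, and 2810417H13Rik, a replication clamp partner, at 369 against 166. Ube2c, a ubiquitin-conjugating enzyme gene of mitosis, had a ratio of 1.95, and 0.48 without the top cell. The list's median ranged from 0.61 to 1.37 over the alternatives. Tyms and Ube2c were under 50 CPM in control cDC1 and passed the level filter only through the Treg-depleted cDC1. The filter thus fixes part of the count and median.

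**Figure D5:**
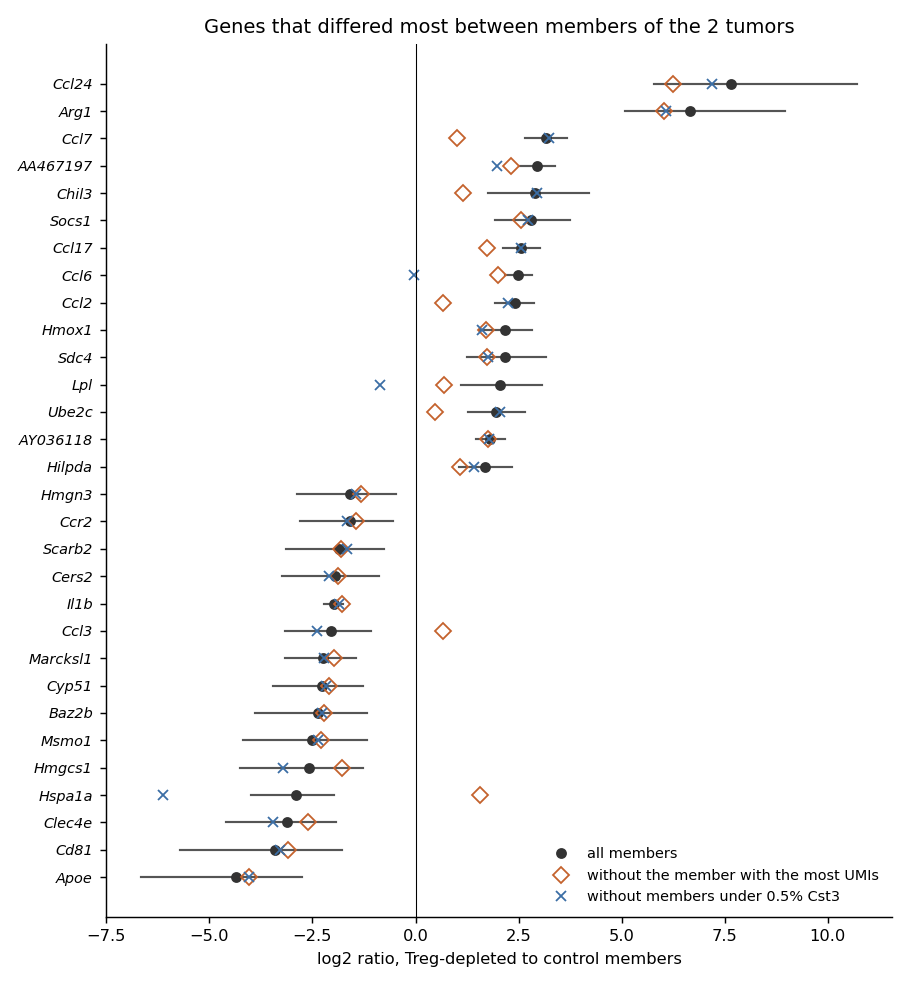
Points are log2 ratios of Treg-depleted to control cDC1 for the 15 genes ranked highest and the 15 ranked lowest, with 95% counting intervals as bars. Diamonds leave out the cell with the most UMIs of the gene and crosses the 4 low-Cst3 cells per tumor; Ccl6 and Lpl lose their difference without the low-Cst3 cells, and Hspa1a and Ccl3 change direction without 1 cell.

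Genes of cholesterol synthesis were lower in the Treg-depleted cDC1. Hmgcs1, which starts the mevalonate pathway, stood at 96.5 CPM in control and 16.1 CPM in Treg-depleted cDC1, a log2 ratio of -2.59 (-4.27 to -1.28), and was detected in 17 of 46 and 4 of 22 cells. Msmo1, a sterol demethylase gene, stood at 91.2 and 16.1 CPM, at -2.50 (-4.19 to -1.19). Cyp51, which encodes lanosterol demethylase, stood at 139 and 28.9 CPM in 30 and 7 cells, at -2.27 (-3.45 to -1.27). Fdps, which makes farnesyl diphosphate, was the most abundant, at 436 and 164 CPM and -1.41 (-1.88 to -0.97). In the other kept cells Fdps stood at 110 and 40.7 CPM, so it shifted about as much there. Cyp51 stood at 50.4 and 22.2 CPM in those cells, Msmo1 at 57.2 and 33.2, and Hmgcs1 at 25.9 and 22.1.

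A list of 16 sterol genes was drawn up after 3 of them had appeared in the ranking, so its direction is no independent evidence. Only 4 passed the level filter, and all 4 were 2-fold lower. Over all genes 2.27% were 2-fold lower. Hmgcs1, Msmo1 and Cyp51 were under 50 CPM in the Treg-depleted cDC1 and passed only through the control cDC1. The count is therefore partly set by the filter. Summed over the 16, the genes stood at 1114 CPM in control cDC1 and 408 CPM in Treg-depleted cDC1. Per cell, the control values ran from 0 through a median of 661 to 6116 CPM, and the Treg-depleted values from 0 through 286 to 985 CPM, so the ranges overlap. The other kept cells stood at 447 and 286 CPM and the low-count barcodes at 440.2 and 287. The sterol sensor gene Insig1 (17.9 and 45.0 CPM) was under the level filter and stood higher in the Treg-depleted cDC1.

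Il1b, the gene of the inflammatory cytokine IL-1β, stood at 2309 CPM in control cDC1, in 42 of 46 cells, and at 585 CPM in Treg-depleted cDC1, in 16 of 22. The per-cell values had medians of 1141 and 131 CPM and ranges of 0 to 17571 and 0 to 4184 CPM, which overlap. The log2 ratio was -1.98 (-2.21 to -1.76). Both levels were below those of the other kept cells, 3652 and 2186 CPM, and of the low-count barcodes, 4756 and 3113 CPM. Apoe, an apolipoprotein gene, had 110 UMIs in control and 3 in Treg-depleted cDC1 (197 and 9.64 CPM). It stood at 4435 and 160 CPM in the low-count barcodes, and after subtraction of free RNA its ratio turned from -4.35 to 0.85.

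The tetraspanin gene Cd81 stood at 102 and 9.64 CPM, in 13 and 2 cells, and the lectin gene Clec4e at 166 and 19.3 CPM. Baz2b, a chromatin reader gene, stood at 100.1 and 19.3 CPM, in 26 and 6 cells. The ceramide synthase gene Cers2, the lysosomal receptor gene Scarb2, the chemokine receptor gene Ccr2, Marcksl1 and Hmgn3 were at least 2.99-fold lower. Hspa1a, a heat shock gene, and Ccl3 owed their lower values to 1 control cell each, with 95.5% and 85.1% of the UMIs; without it the ratios were 1.56 and 0.67.

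Of the class II accessory genes, none of 9 measured was 2-fold apart. None of 19 class I and peptide-loading genes was 2-fold apart and their median was -0.23; the chaperone genes Calr and Pdia3 stood at -0.69 (-0.93 to -0.46) and -0.61 (-0.84 to -0.39). Of 7 co-signalling genes measured, 1 was 2-fold higher, Pdcd1lg2 (the PD-L2 gene, 132 against 55.4 CPM), and 1 was 2-fold lower, Btla (45.0 against 96.5 CPM), and the intervals of 4 left out a ratio of 1. Cd83 stood at 305 against 576 CPM. Type I interferon response genes had 1 of 6 higher (Oasl1) and 1 lower (Irf7, 90.0 against 200.2 CPM). Of 12 measured hypoxia and glycolysis genes 3 were 2-fold higher, Hk2, Bnip3 and Hilpda, and the list's median was 0.18. Over all 2336 genes 4.11% were 2-fold higher and 2.27% lower, and for 580 the interval left out a ratio of 1. Beside those shares, counts of 0 or 1 in lists this short say little about the lists.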

How the data were processed

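Single-cell RNA of sorted myeloid cells was measured in 3 mouse libraries (10x Genomics 3' v2 chemistry, per the labels' protocols). The authors deposited raw UMI counts per gene and barcode for each library; Cell Ranger 1.2 and mm10 are named per the submitters' processing notes. The 2 tumor libraries held 42493416 and 23291061 UMIs. The cDC1, the gene lists and the comparisons were chosen with earlier results of these data known.

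UMI counts were summed over the cells of a class and divided by the class total to give CPM. With 1 library per group no test across samples exists, so ratios carry exact intervals of counting error and "2-fold" is a size, not a test. PCR and capture error are not in these intervals. Named genes were ranked among those with a mean of at least 50 CPM and at least 30 UMIs: the 20 highest (by the smaller ratio of the 2 tumors) and 8 lowest (by the larger) against the other kept cells, and the 15 highest and 15 lowest between tumors whose interval left out 1. Genes of the lists and markers may be named beside them; the sterol list and the genes named for low-Cst3 cells were chosen after their values were seen. Results for 2 genes are not reported here, and 1 of them was left out of the sterol list. Free RNA was read from barcodes of 10 to 100 UMIs. Doublets were scored against simulated pairs of cells and kept in the main analysis. The ratio and its interval were tested on simulated counts, the doublet score on planted doublets and the thinning on the cDC1 counts. The simulated counts were independent Poisson draws, the model of the interval itself. That test could not show how the interval behaves where 1 cell holds most UMIs of a gene. Alternatives covered the cell filters, the member rule, doublets, scaling, free RNA, the level filter and single cells. Promoter windows came from RefSeq (GRCm38.p6) and gene positions from GENCODE M21. Python 3.11.15, numpy 2.4.6, scipy 1.17.1 and matplotlib 3.10.9 were used.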

Additional observations from a re-analysis of the deposited data

Results flagged for a closer look

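In the control-blood library, which enters no comparison above, 16 of 5550 kept barcodes met the same rule, a share of 0.288% (exact interval 0.165 to 0.468). These 16 held Xcr1 at 423 CPM, Clec9a at 230 CPM, Irf8 at 2320 CPM, Wdfy4 at 442 CPM and Cst3 at 29851 CPM, and none was under 0.5% Cst3. Itgae had a UMI in 2 of the 16 and Plet1 in 0.

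Of 56 named genes, 2 stood on opposite sides of the surrounding cells in the 2 tumors. The log2 ratio of cDC1 to other kept cells for Socs1 was -1.04 (control) and 0.67 (Treg-depleted). For Baz2b it was 0.90 (control) and -1.29 (Treg-depleted). With 1 library per tumor the difference between them was not tested.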

How the results depend on the processing

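No paired analysis was possible because each group has 1 library. The share of cDC1 in the control and Treg-depleted tumors was 2.43% and 1.33% with at least 1 UMI of Xcr1 or Clec9a, 0.608% and 0.293% with at least 3, 0.540% and 0.271% with both genes required, and 2.79% in the control tumor without the limits on Ccr7 and C1q. The counts of genes 2-fold higher and lower in the Treg-depleted cDC1 became 182 and 97 by the mean of per-cell CPM, 256 and 257 at a minimum of 20 CPM, and 51 and 13 at 100 CPM; the lower count was 91 with both genes required. At 20 CPM the cDC1 against the other cells gave 349 higher and 631 lower in the control tumor and 645 and 894 in the other. Without thinning the cycling shares were 65.2% and 63.6%. Direction changed for Lpl at -0.56 (at least 3 UMIs), -1.04 (both genes) and -0.86 (without low-Cst3 cells), for Ccl6 at -0.51 (both genes) and -0.034 (without low-Cst3 cells), for Hspa1a at 1.25 (at least 3 UMIs) and 1.56 (without its top cell), for Ccl3 at 0.63 (doublets out) and 0.67 (without its top cell), and for Apoe at 0.85 (free RNA subtracted). The cause was not tested. Of 163 list medians under the alternatives 4 moved by 0.5 or more (log2), and 14, from 6 of 15 lists whose main median was within 0.33 of 0, crossed 0; of 360 values of named genes 43 moved and 10 changed direction. The settings without low-Cst3 cells and without the top cell were chosen after seeing the data. Low counts limit single genes: the limit of 3 counts used for a count of 0 is 9.64 CPM in the Treg-depleted cDC1, and the exact Poisson bound is 11.9 CPM.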
